A study of Gallus gallus with 12 samples.

Results

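The genes that encode the subunits, activators, inhibitor and assembly factors of the proteasome were described in ovarian follicles of laying hens. They were taken by symbol, as every row of the gene table whose name begins with PSMA, PSMB, PSMC, PSMD, PSME, PSMF or PSMG followed by a digit. The rule found 39 of the 12470 named genes. Of these, 13 encode the core particle (PSMA and PSMB), 15 the regulatory particle (PSMC and most PSMD), and 10 accessory proteins. The remaining one, PSMC3IP, carries the name only because its protein binds PSMC3, and it is kept apart. Messenger RNA was sequenced from Gallus gallus follicle tissue of 6 hens aged 12 months, and each hen gave a Pre-recruitment follicle and a pre-ovulatory F5 follicle. The labels name no strain, treatment or genetic change, and the 12 libraries therefore fall into 2 stages of 6. Pre-recruitment follicles have not yet joined the pre-ovulatory hierarchy, the follicles that fill with yolk and ovulate in turn, and an F5 follicle is a small member of it.

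The proteasome is the cell's main machine for degrading proteins that carry ubiquitin chains. Its core particle is a barrel of stacked rings, with outer alpha rings that form a gate and inner beta rings that hold the proteolytic sites. The regulatory particle caps the barrel. Its base holds a ring of ATPases that unfold substrates and push them through the gate, and its lid removes the ubiquitin chain. Smaller activators can cap the core in place of the regulatory particle, and dedicated chaperones assemble the rings. Subunits of a finished particle are present in fixed proportions, and their genes are known in mammals to be induced together by the transcription factor NFE2L1. The ovary is a tissue of mixed cell types, so a level in whole follicle tissue cannot tell fewer cells of a type from less RNA per cell.

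The libraries held 20628640 to 29082988 counts on named genes at the Pre-recruitment stage and 28044247 to 40887647 at F5. Each of the 39 members had at least 241 counts in every library, and all 39 passed the filter on low counts. Marker lists showed mixed tissue. In F5 follicles, 8 of 8 smooth muscle markers rose, with a summed level of 3175 to 7424 CPM (counts scaled to library size) before recruitment and 12290 to 25920 CPM in F5, and 6 of 6 fibroblast markers rose (20520 to 30050 against 39120 to 50890 CPM). Of 12 oocyte markers, 9 fell, while their summed level, most of it ZP3, overlapped (958 to 1207 against 481 to 1438 CPM). ZP3 is also made by granulosa cells in birds. Granulosa markers fell in 6 of 8 cases (2050 to 2751 against 1063 to 1479 CPM). Of 5 endothelial markers 3 rose (490 to 579 against 589 to 668 CPM), and of 4 theca and steroid cell markers 2 rose and 1 fell (1340 to 2107 against 1382 to 1978 CPM). With edgeR, 0 of 6 leukocyte markers (455 to 914 against 507 to 710 CPM) and 0 of 3 erythrocyte markers (71.1 to 180 against 35.7 to 264 CPM) passed. At an unadjusted p under 0.05 there were 1 and 0 of them, and with DESeq2 also 1 and 0. With library totals in place of the scaling used here, 7 of 8 smooth muscle and 5 of 6 fibroblast markers rose, 11 of 12 oocyte and 6 of 8 granulosa markers fell, 1 theca marker rose and 1 fell, 1 endothelial marker rose and 2 fell, and 2 leukocyte markers fell. Among all genes tested, 32.9% were called higher in F5 and 32.6% lower, or 18.5% and 46.4% with library totals. Each listed marker with a row was detected in at least 1 library. The part of these shifts in the results on proteasome genes was not tested.

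Most subunit genes of both particles were higher in F5 follicles, by modest amounts. By edgeR's quasi-likelihood test, with an adjusted p under 0.05 (Benjamini-Hochberg) as the threshold, 24 of the 39 members rose, 6 fell and 9 did not pass. Among all 11195 genes tested, 65.5% were called, 32.9% higher and 32.6% lower. In the core particle 11 of 13 genes rose and 1 fell, with a median log2 change of 0.43, against a median of 0.02 over all genes. In the regulatory particle 11 of 15 rose and the other 4 did not pass, with a median log2 change of 0.28. The 10 accessory genes split, with 2 risers, 4 fallers and a median of -0.04. Changes of at least 1.5-fold were few. PSMB1 and PSMD7 rose and PSMF1, PSMG4 and PSMC3IP fell by that much, 2 and 3 of 39, against 13.9% and 18.2% of all genes.

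**Figure D1:**
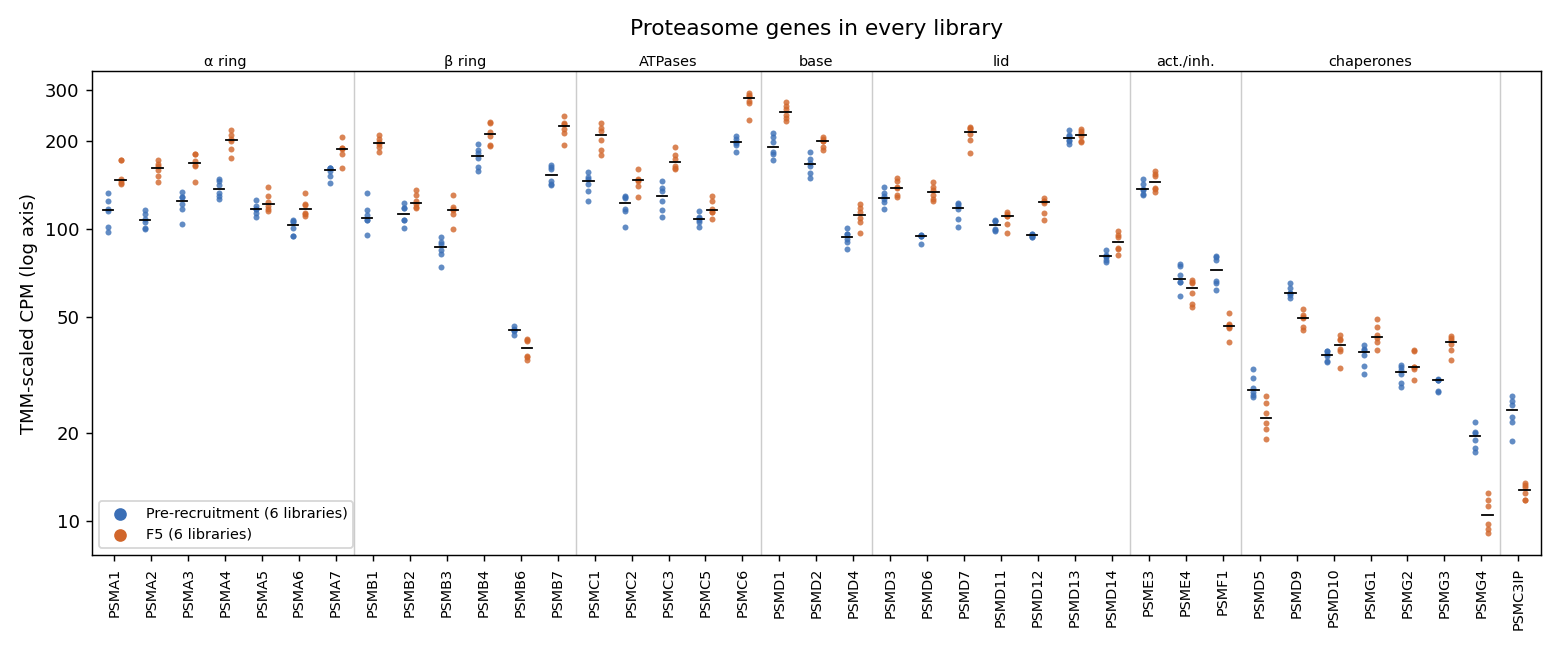
TMM-scaled CPM (log axis) of the 39 members in every library, grouped by role. Each point is 1 library and each bar the median of the 6 libraries of a stage. The F5 points of PSMB1 and PSMD7 stand wholly above the Pre-recruitment points, and those of PSMF1, PSMG4 and PSMC3IP wholly below.

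These directions are relative to the typical gene, because the choice of scale moves them. CPM values here are scaled by TMM, whose factors were 1.09 ± 0.0485 before recruitment and 0.923 ± 0.0404 in F5 (SD, n = 6). The 2 ranges did not overlap, and the factor was lower in F5 in 6 of 6 birds. An exact permutation test over all 12 libraries gave p = 0.00216 (adjusted over 4 library measures 0.00433). An exact test of the within-bird differences, added after seeing the data, gave p = 0.0312 (adjusted 0.0417), the smallest that 6 pairs allow. With library totals alone the median log2 change of all genes became -0.21, and 18.5% of all genes were higher and 46.4% lower. The core particle then had 7 risers and 2 fallers (median 0.19) and the regulatory particle 6 risers and 2 fallers (median 0.04). The core genes that rose under both scales were PSMA1, PSMA2, PSMA3, PSMA4, PSMB1, PSMB3 and PSMB7, and the regulatory genes were PSMC1, PSMC3, PSMC6, PSMD1, PSMD6 and PSMD7. Of the accessory genes PSMG3 alone rose under both (library totals, log2 change 0.21, edgeR adjusted p = 0.00343). PSMB6, PSMF1, PSMD5, PSMD9, PSMG4 and PSMC3IP fell under both.

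**Figure D2:**
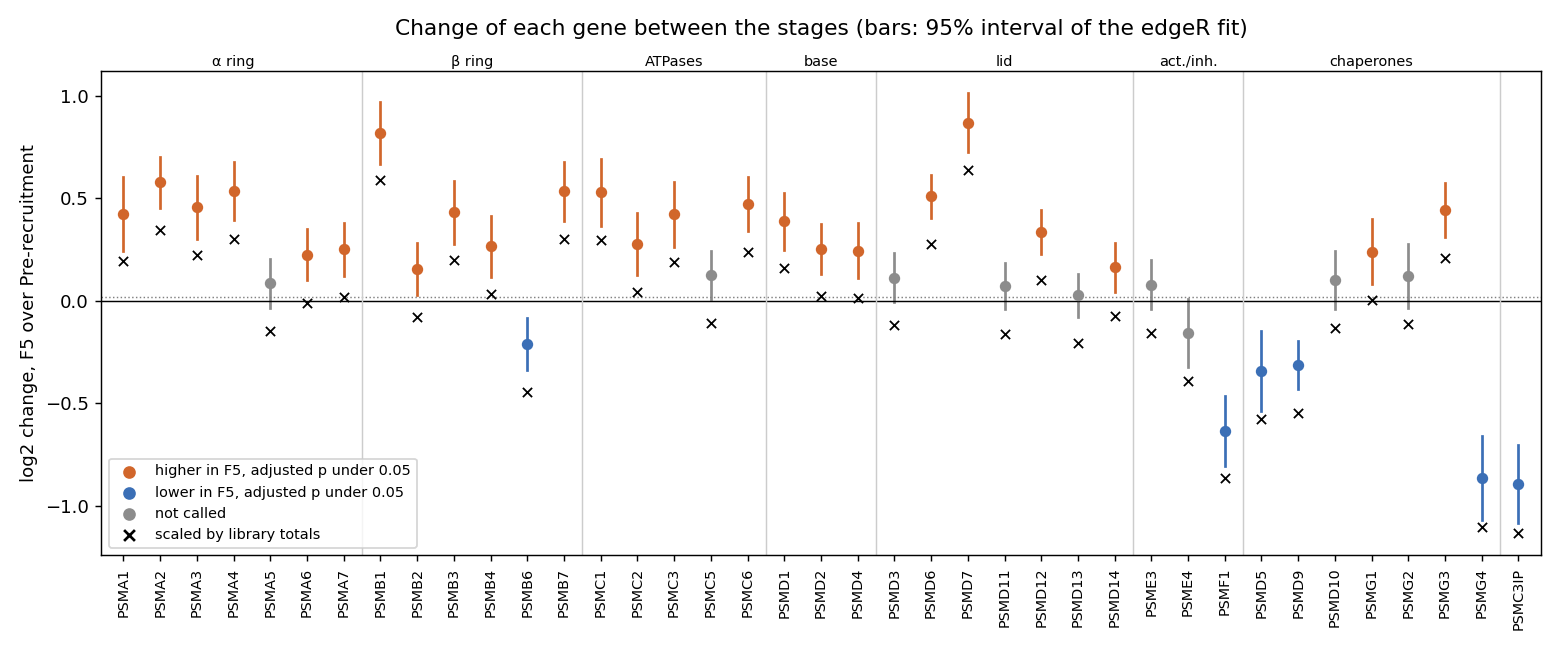
Log2 change of each member, F5 over Pre-recruitment, with its 95% interval from the edgeR fit on 12 libraries, coloured by call. Crosses give the change scaled by library totals, which lies lower for each gene, and the dotted line is the median of all genes at 0.02.

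In the alpha ring, which gates the barrel, 6 of 7 genes rose and PSMA5 did not pass. Among all genes tested 32.9% were called higher. With library totals 4 of the 7 rose and 1 fell, against 18.5% and 46.4% of all genes. PSMA2 ran from 99.8 to 116 CPM before recruitment (median 107) and from 145 to 172 CPM in F5 (median 162). No F5 library reached down to the Pre-recruitment range. The change was 1.49-fold (log2 change 0.58, SE 0.06, edgeR adjusted p = 1.37e-06), higher in 6 of 6 birds. PSMA4 went from 126 to 148 CPM (median 137) to 175 to 219 CPM (median 201), also without overlap, 1.45-fold (log2 change 0.54, SE 0.06, edgeR adjusted p = 7.44e-06). PSMA3 rose 1.37-fold and PSMA1 1.34-fold. PSMA7 and PSMA6 rose 1.19-fold and 1.17-fold, and those last calls ended with library totals, where the log2 changes were 0.02 and -0.01. PSMA5 measured a median of 117 CPM before recruitment and 122 CPM in F5, with overlapping ranges and a log2 change of 0.09 (95% interval -0.03 to 0.21, edgeR adjusted p = 0.193). With library totals its log2 change was -0.15 and passed the test (edgeR adjusted p = 0.0472).

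The beta ring, which holds the proteolytic sites, contained the most divergent members of the core. PSMB1, a structural subunit without proteolytic activity, ran from 95.4 to 132 CPM before recruitment (median 109) and from 184 to 210 CPM in F5 (median 197). The groups were far apart, and the change was 1.76-fold (log2 change 0.82, SE 0.07, edgeR adjusted p = 3.43e-07), higher in 6 of 6 birds. PSMB7, which carries the trypsin-like activity, ran from 141 to 165 CPM (median 153) and then from 193 to 244 CPM (median 224), again without overlap. It rose 1.45-fold (log2 change 0.53, SE 0.07, edgeR adjusted p = 9.14e-06). PSMB6, which carries the caspase-like activity in mammals, was the exception, and its symbol matched no RefSeq symbol of the build used for names. It ran from 43.2 to 46.3 CPM before recruitment (median 44.9) and from 35.4 to 41.8 CPM in F5 (median 38.9), so that the F5 libraries all lay below. It fell 1.16-fold (log2 change -0.21, SE 0.06, edgeR adjusted p = 0.00579) and was lower in each of the 6 birds.

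The other beta subunits rose less. PSMB3 rose 1.35-fold and PSMB2 1.11-fold, and PSMB4 had a log2 change of 0.27 that passed (edgeR adjusted p = 0.00425). With library totals PSMB4 did not pass (log2 change 0.03), and PSMB2 turned to -0.08. PSMB2 was close to the threshold (edgeR adjusted p = 0.0343) and missed it when any of 5 single libraries was left out, with adjusted p from 0.0686 to 0.117. These were the Pre-recruitment libraries of birds 5826, 5835 and 5840 and the F5 libraries of birds 5810 and 5835. PSMB5, which carries the chymotrypsin-like activity, and the inducible subunits PSMB8, PSMB9 and PSMB10 of the mammalian immunoproteasome were not analysed here. Of 13 core genes, 9 had all F5 libraries above all Pre-recruitment libraries and 1, PSMB6, had them all below, against 20.7% and 22.8% of all genes tested.

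In the ATPase ring of the base, which unfolds substrates, 4 of 5 genes rose, against 32.9% of all genes tested. With library totals 3 of the 5 rose and 0 fell, against 18.5% and 46.4% of all genes. PSMC6 ran from 184 to 209 CPM before recruitment (median 198) and from 236 to 292 CPM in F5 (median 280). The groups did not overlap, with a change of 1.39-fold (log2 change 0.47, SE 0.06, edgeR adjusted p = 1.16e-05). PSMC1 ran from 125 to 156 CPM (median 145) and then from 179 to 231 CPM (median 209), 1.44-fold higher (log2 change 0.53, SE 0.08, edgeR adjusted p = 3.25e-05). Both rose in 6 of 6 birds. PSMC3 rose 1.34-fold and PSMC2 1.21-fold, the latter not with library totals (log2 change 0.04). PSMC5 had medians of 108 and 116 CPM and a log2 change of 0.13 (95% interval 0.01 to 0.24, edgeR adjusted p = 0.0538). It passed without the F5 library of bird 5826 (log2 change 0.15, adjusted p = 0.0238), and with library totals it turned to -0.11. PSMC4, the remaining ATPase, was not analysed here.

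The other base subunits, PSMD1 and PSMD2, which are large scaffolds, and PSMD4, a receptor for ubiquitin chains, all rose. Among all genes tested 32.9% were called higher. With library totals 1 of these 3 rose and 0 fell, against 18.5% and 46.4% of all genes. PSMD1 ran from 172 to 213 CPM (median 191) before recruitment and from 235 to 272 CPM (median 251) in F5, without overlap, a change of 1.31-fold (log2 change 0.39, SE 0.06, edgeR adjusted p = 1.18e-04). PSMD2 ran from 149 to 184 CPM (median 166) and then from 186 to 207 CPM (median 199), with a narrow gap between the groups, and rose 1.19-fold (log2 change 0.25, SE 0.06, edgeR adjusted p = 0.00141). PSMD4 rose 1.19-fold with overlapping groups. PSMD2 and PSMD4 did not pass with library totals, at log2 changes of 0.02 and 0.01.

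The lid held both the largest rise and the flattest genes of the regulatory particle. PSMD7, the inactive partner of the deubiquitinase PSMD14, ran from 101 to 122 CPM before recruitment (median 118) and from 182 to 224 CPM in F5 (median 216). The lowest F5 library was far above the highest Pre-recruitment library. The change was 1.83-fold (log2 change 0.87, SE 0.07, edgeR adjusted p = 1.33e-07), and the log2 difference within a bird ran from 0.79 to 0.93. PSMD6, a scaffold subunit, was tight before recruitment, from 88.8 to 95.4 CPM (median 94.7), and ran from 125 to 145 CPM in F5 (median 133). It rose 1.42-fold (log2 change 0.51, SE 0.05, edgeR adjusted p = 8.97e-07). PSMD12 rose 1.26-fold without overlap, a call that ended with library totals (log2 change 0.10, edgeR adjusted p = 0.156).

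PSMD13, PSMD3 and PSMD11, also structural subunits of the lid, did not pass. PSMD13 ran from 195 to 218 CPM before recruitment (median 205) and from 199 to 219 CPM in F5 (median 210), almost the same range. Its log2 change was 0.03 (95% interval -0.08 to 0.13, edgeR adjusted p = 0.647), which turned to -0.003 without the Pre-recruitment library of bird 5802 or 5826 and to -0.01 without that of bird 5840. The log2 changes of PSMD3 and PSMD11 were 0.11 and 0.07 (edgeR adjusted p = 0.0884 and 0.242). With library totals PSMD13 (-0.21) and PSMD11 (-0.16) passed as lower, and PSMD3 stood at -0.12. PSMD14, the deubiquitinase that cleaves chains from substrates, had medians of 80.4 and 90.1 CPM and rose 1.12-fold (log2 change 0.16, SE 0.06, edgeR adjusted p = 0.0197). That call was lost without the Pre-recruitment library of bird 5810, 5835 or 5840 (adjusted p from 0.0603 to 0.0873), and with library totals the log2 change was -0.07. PSMD8 was not analysed here. Of the regulatory genes analysed here, 8 of 15 had all F5 libraries above all Pre-recruitment libraries and 0 had them all below. Among all genes tested these shares were 20.7% and 22.8%.

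The sums and ratios below leave out subunits without a row, such as PSMB5, PSMC4 and PSMD8, and ADRM1, which the symbol rule does not find. Summed over its genes analysed here, the core particle measured 1419 to 1659 CPM before recruitment (median 1543) and 1873 to 2172 CPM in F5 (median 2017). The regulatory particle measured 1848 to 2069 CPM (median 1996) and then 2324 to 2628 CPM (median 2515). Both sums were higher in F5 in 6 of 6 birds without overlap, with ratios of the stage means of 1.31 and 1.26. As a plain share of named counts, which uses no TMM factor, the core went from 0.167% ± 0.00397 to 0.186% ± 0.0083 and the regulatory particle from 0.213% ± 0.00208 to 0.229% ± 0.0114 (SD, n = 6). These shares also rose in 6 of 6 birds, but by less, with ratios of 1.12 and 1.07. The core shares did not overlap between the stages, with at most 0.173% before recruitment and at least 0.177% in F5. The regulatory shares overlapped, from 0.210% to 0.216% before recruitment and from 0.213% to 0.243% in F5. The ratio of the core sum to the regulatory sum is free of scaling. It ran from 0.761 to 0.812 before recruitment (median 0.783) and from 0.780 to 0.832 in F5 (median 0.816), higher in 5 of 6 birds with overlapping ranges. Bird 5817 went the other way, from 0.812 to 0.780. As scores over chosen members, these sums and ratios are given without a test.

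**Figure D3:**
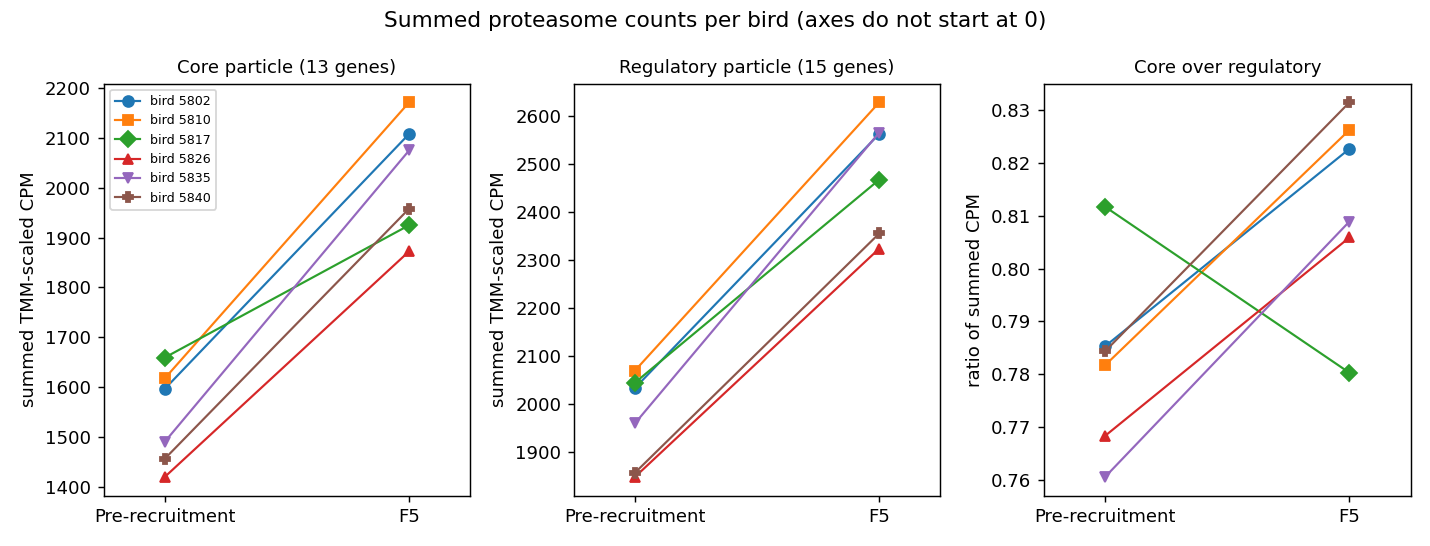
Summed TMM-scaled CPM of the 13 core genes and the 15 regulatory genes, and the ratio of these sums, with 1 line per bird from Pre-recruitment to F5. Both sums rise in 6 of 6 birds, with the shallowest slope in bird 5817, whose ratio is the only one to fall (0.812 to 0.780).

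The birds were alike in the direction of the median change of each particle and differed in its size. The median log2 difference over core genes within a bird was 0.39 in 5802, 0.47 in 5810, 0.46 in 5826, 0.50 in 5835 and 0.44 in 5840, but 0.17 in bird 5817. Over regulatory genes it was 0.15 in bird 5817 and 0.27 to 0.36 in the other 5 birds. In each of the other 5 birds 12 of 13 core genes were higher in the F5 follicle, PSMB6 being the exception, and in bird 5817 there were 10. Of 15 regulatory genes, 12 were higher in bird 5826, 13 in 5810, 14 in 5802 and 5817, and 15 in 5835 and 5840. Among the accessory genes PSMD10, PSME3, PSME4 and PSMG2 differed in sign between birds. Bird 5817 did not stand apart for PSMD7 (0.79) or PSMD6 (0.55), and it had the largest falls of PSMF1 (-0.80) and PSMG4 (-1.10). Among libraries of 1 stage the members varied little. Their median coefficient of variation was 6.98% before recruitment and 7.38% in F5, against 11.7% and 12.3% over all genes tested, a measure that also depends on how deeply a gene is counted.

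**Figure D4:**
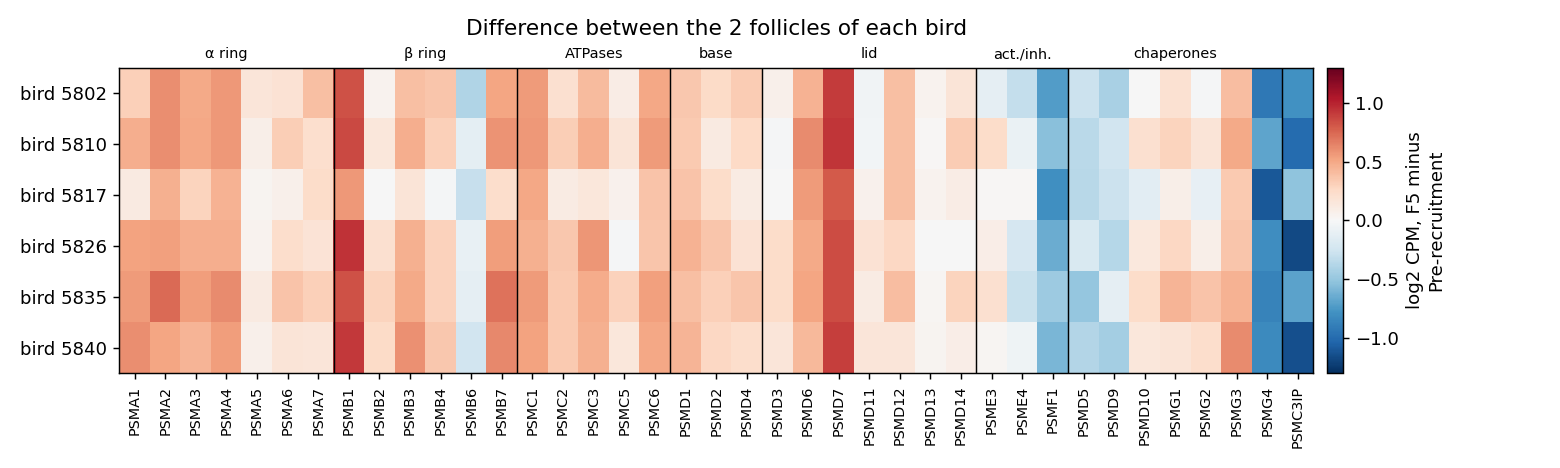
Log2 CPM of the F5 follicle minus that of the Pre-recruitment follicle of the same bird, for each member (columns, by role) and bird (rows). PSMB1 and PSMD7 are the darkest red columns, and PSMF1, PSMG4 and PSMC3IP are blue in 6 of 6 birds. Bird 5817 is paler than the others for most core genes, PSMA7 and PSMB6 excepted.

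Because the subunits of a particle are assembled in fixed numbers, the make-up of each particle's transcripts was also compared, as the share of the particle's summed CPM that each gene takes. A share depends on transcript length, so it can be compared between stages but not between genes, and it does not depend on scaling. The shares were not constant, but they were not compared with shares in other gene sets. For scale, the CPM ranges of the 2 stages lay wholly apart in many genes, with F5 above in 20.7% of all genes tested and below in 22.8%. In the core, 3 genes (PSMA2, PSMA4 and PSMB1) had a higher share in each F5 library than in any Pre-recruitment library, 5 (PSMA5, PSMA6, PSMB2, PSMB4 and PSMB6) a lower one, and 5 overlapped. PSMB1 went from 7.23% ± 0.425 to 9.76% ± 0.445 of the core and PSMB6 from 2.93% ± 0.154 to 1.93% ± 0.181 (SD, n = 6). In the regulatory particle PSMD7 alone stood wholly higher, from 5.84% ± 0.265 to 8.44% ± 0.319 (SD, n = 6). PSMC5, PSMD11, PSMD13 and PSMD14 stood wholly lower, and 10 overlapped. PSMD13 went from 10.4% ± 0.313 to 8.42% ± 0.225 (SD, n = 6). Shares within a particle sum to a fixed total, so a higher share of one gene lowers the others.

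**Figure D5:**
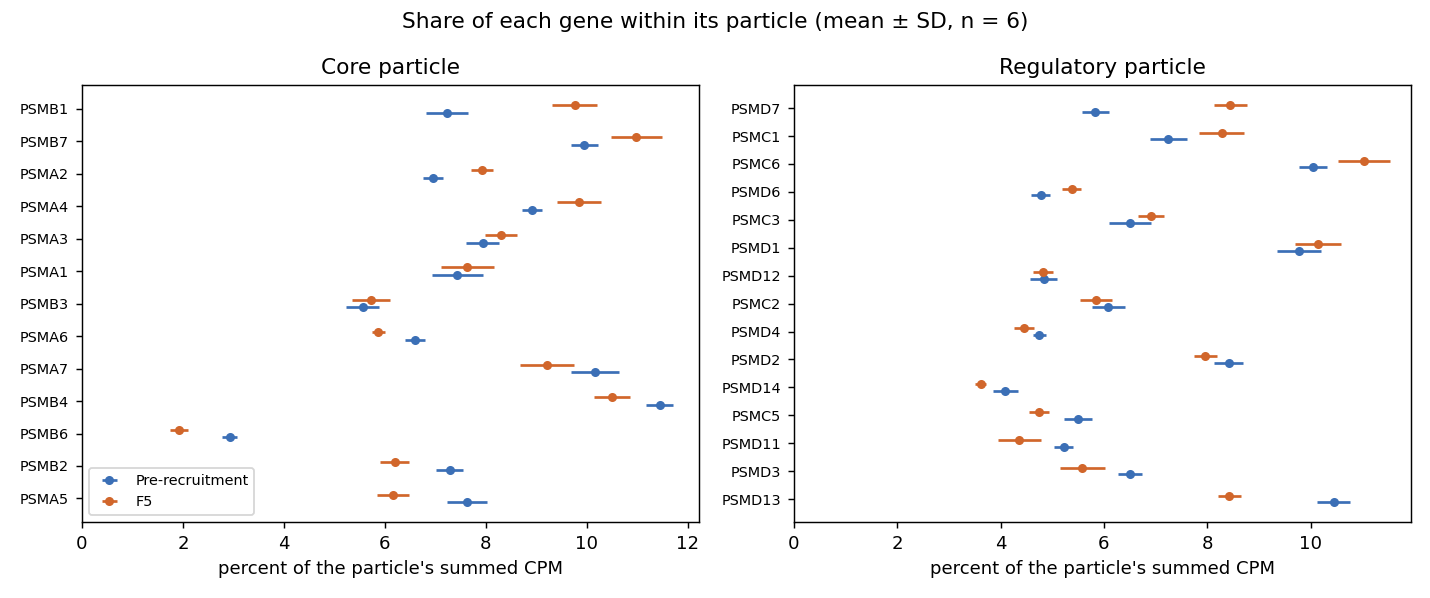
Share of each gene in the summed CPM of the core particle (left) and the regulatory particle (right), mean ± SD over 6 libraries per stage, ordered by the difference. PSMB1 and PSMD7 gain the most share, and PSMA5 and PSMD13 lose the most.

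Ratios of 2 genes within a library restate this shift, because the genes were chosen after their values were seen. They are given without a test. The PSMB1 to PSMB6 ratio of CPM ran from 2.13 to 2.94 before recruitment (median 2.44) and from 4.39 to 5.60 in F5 (median 5.19). The PSMD7 to PSMD13 ratio ran from 0.507 to 0.593 (median 0.567) and then from 0.913 to 1.08. Neither ratio overlapped between the stages.

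Of the 3 activator and inhibitor genes, 0 were called higher and 1 lower, against 32.9% and 32.6% of all genes tested. PSMF1, known as PI31, which inhibits the core in vitro and is linked to proteasome transport and assembly, ran from 61.9 to 80.6 CPM before recruitment (median 72.1) and from 41.0 to 51.5 CPM in F5 (median 46.5). The F5 libraries all lay below, and it fell 1.55-fold (log2 change -0.63, SE 0.08, edgeR adjusted p = 1.07e-05), with each of the 6 birds lower. PSME4, the large activator PA200, ran from 58.6 to 75.7 CPM (median 67.5) and from 54.0 to 66.8 CPM (median 62.7), with overlap. Its log2 change was -0.16 (95% interval -0.32 to 0.01, edgeR adjusted p = 0.0872). It passed with the bird as a block (log2 change -0.16, adjusted p = 0.0364), without the Pre-recruitment library of bird 5810 (-0.22, 0.0217) and with library totals (-0.39, 0.00301). PSME3, a nuclear activator, had medians of 136 and 145 CPM and a log2 change of 0.08 (95% interval -0.04 to 0.20, edgeR adjusted p = 0.231), which became -0.16 and passed with library totals (adjusted p = 0.0343). PSME1 and PSME2 were not analysed here.

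Of 7 assembly chaperones 2 rose and 3 fell, against 32.9% and 32.6% of all genes tested. With library totals 1 rose and 3 fell, against 18.5% and 46.4%. A pair that works as a dimer was split between the directions. PSMG3 and PSMG4 together help build the alpha ring. PSMG3 ran from 27.5 to 30.5 CPM before recruitment (median 30.3) and from 35.6 to 43.0 CPM in F5 (median 40.8), without overlap, and rose 1.36-fold (log2 change 0.44, SE 0.06, edgeR adjusted p = 2.32e-05). PSMG4 ran from 17.2 to 21.7 CPM (median 19.4) and then from 9.06 to 12.5 CPM (median 10.5), also without overlap, and fell 1.82-fold (log2 change -0.86, SE 0.10, edgeR adjusted p = 3.40e-06). Both moved in 6 of 6 birds. Their ratio, PSMG3 over PSMG4, chosen after the values were seen, ran from 1.28 to 1.76 and then from 2.86 to 4.43.

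PSMG1, of the other alpha ring dimer, ran from 31.8 to 40.0 CPM (median 37.7) and from 38.5 to 48.9 CPM (median 42.7). It overlapped between the stages and rose 1.18-fold (log2 change 0.24, SE 0.07, edgeR adjusted p = 0.0113), a call lost without bird 5835 (adjusted p = 0.0581) and with library totals (log2 change 0.01). Its partner PSMG2 had a log2 change of 0.12 (95% interval -0.04 to 0.28, edgeR adjusted p = 0.158), or -0.11 with library totals. Of the chaperones of the base, PSMD9 fell 1.24-fold (edgeR adjusted p = 1.92e-04) and PSMD5 fell 1.27-fold (edgeR adjusted p = 0.00448), each in 6 of 6 birds. PSMD10, known as gankyrin, had a log2 change of 0.10 (95% interval -0.04 to 0.24, edgeR adjusted p = 0.186). It passed without the F5 library of bird 5817 (0.15, adjusted p = 0.0357) and turned to -0.13 with library totals.

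PSMC3IP, which is no proteasome subunit but a factor of meiotic recombination, ran from 18.7 to 26.6 CPM before recruitment (median 23.8) and from 11.7 to 13.4 CPM in F5 (median 12.7). It fell 1.86-fold without overlap (log2 change -0.89, SE 0.09, edgeR adjusted p = 1.19e-06), with each of the 6 birds lower. Oocyte markers fell in the same libraries, 9 of 12, with a median log2 change of -2.15 over all 12, and their part in this fall was not tested.

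Lists of genes that work with the proteasome are set beside the 32.9% of all genes that were higher and the 32.6% that were lower, or 18.5% and 46.4% with library totals. Of 14 factors that bind or complete the proteasome 5 rose and 3 fell, with a median log2 change of 0.14. With library totals 2 rose and 6 fell, with a median of -0.10. POMP, which places the beta subunits during assembly, measured 85.9 ± 7.71 CPM before recruitment and 134 ± 11.1 CPM in F5 (SD, n = 6). It rose 1.56-fold (edgeR adjusted p = 4.41e-06). The deubiquitinases USP14 and UCHL5 rose 1.34-fold and 1.28-fold, and ADRM1, a ubiquitin receptor of the base that recruits UCHL5, rose 1.27-fold. UCHL5 and ADRM1 did not pass with library totals (log2 change 0.11 for both). FBXO7, an F-box protein that binds PSMF1, measured 105 ± 8.71 and 74.2 ± 6.28 CPM (SD, n = 6). It fell 1.42-fold (edgeR adjusted p = 2.37e-05). These 5 genes moved in 6 of 6 birds.

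Genes listed as ubiquitin receptors and shuttles mostly fell. Of these 12 genes 8 fell and 2 rose, with a median log2 change of -0.21. With library totals 9 fell and 2 rose, with a median of -0.45. NGLY1, among the risers, is also counted below with the regulators of proteasome genes. SQSTM1, a ubiquitin-binding receptor of autophagy, measured 160 ± 16.3 and 69.8 ± 9.75 CPM (SD, n = 6). It fell 2.30-fold (edgeR adjusted p = 2.13e-07). UBQLN1 and UBQLN4, which carry ubiquitinated proteins to the regulatory particle, fell 1.74-fold and 1.45-fold. VCP, the segregase that pulls substrates out of complexes and membranes, measured 395 ± 17.9 and 294 ± 9.04 CPM (SD, n = 6), a fall of 1.34-fold, and its cofactor NPLOC4 fell 1.56-fold. These 5 genes fell in 6 of 6 birds, with edgeR adjusted p from 1.34e-07 to 7.17e-06.

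Among regulators of proteasome genes 6 of 12 rose and 3 fell (median log2 change 0.19), and with library totals 5 rose and 5 fell (median -0.04). NFE2L1, the transcription factor that drives the subunit genes in mammals, measured 151 ± 11.1 and 174 ± 6.46 CPM (SD, n = 6). It rose 1.15-fold in 6 of 6 birds (edgeR adjusted p = 0.00544) but not with library totals, where its log2 change was -0.03. NGLY1, a deglycosylating enzyme that activates NFE2L1, rose 1.36-fold (edgeR adjusted p = 9.77e-06), and the related factor NFE2L2 rose 1.36-fold as well (edgeR adjusted p = 0.00108). MAFK, a small MAF partner of both factors, rose 1.86-fold. MAFG and MAFF, also small MAFs, were named after their values were seen. MAFG fell 1.79-fold (edgeR adjusted p = 8.78e-05), in each of the 6 birds. MAFF rose 1.52-fold (edgeR adjusted p = 1.84e-04), in 6 of 6 birds. The CCAAT-binding subunits split, with NFYB up 1.60-fold and NFYC down 1.35-fold. MYC, a transcription factor named in the title of the study, was 1.40-fold higher (edgeR adjusted p = 8.53e-04).

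Ubiquitin and its activating and conjugating enzymes had 4 risers and 4 fallers among 16 (median log2 change -0.05). With library totals the split was 1 riser and 11 fallers (median -0.29). UBB, a polyubiquitin gene, measured 497 ± 34.4 and 435 ± 41.3 CPM (SD, n = 6) and fell 1.14-fold (edgeR adjusted p = 0.0375). That call was lost without the Pre-recruitment library of bird 5817 (adjusted p = 0.0667) and without the F5 library of 5817, 5826, 5835 or 5840 (0.061 to 0.0815), and without both libraries of bird 5817 the adjusted p was 0.126. The conjugating enzymes CDC34 and UBE2N fell 2.25-fold and 1.29-fold, and UBE2L3 and UBE2K rose 1.46-fold and 1.23-fold, UBE2K not with library totals (log2 change 0.06).

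Assemblies related in build or in the fate of their products were set beside the proteasome. Of 8 genes of the COP9 signalosome, whose architecture resembles that of the lid, 3 rose and 1 fell (median log2 change 0.10), and with library totals 2 rose and 4 fell (median -0.14). COPS2 rose 1.53-fold, COPS3 1.41-fold and COPS8 1.24-fold, COPS8 not with library totals (log2 change 0.08), while COPS5, which corresponds to PSMD14 of the lid, fell 1.23-fold. In the chaperonin TRiC, which folds actin and tubulin, 5 of 7 genes rose (median log2 change 0.34), and with library totals 3 rose and 2 fell (median 0.11). CCT5, TCP1, CCT2 and CCT4 rose 1.64-fold, 1.46-fold, 1.37-fold and 1.27-fold, CCT4 not with library totals (log2 change 0.11). In class I antigen processing, which uses peptides made by the proteasome, 6 of 11 genes rose and 1 fell (median log2 change 0.36), and with library totals 4 rose and 3 fell (median 0.13). The genes with the smallest adjusted p there, CANX, ERAP1, CALR and PDIA3, rose with log2 changes of 0.70, 0.57, 0.77 and 0.47. ERAP1 trims peptides, while CANX, CALR and PDIA3 are general chaperones and a disulfide isomerase of the endoplasmic reticulum. B2M, the light chain of class I molecules and the 1 gene that fell, named after its values were seen, was 1.48-fold lower in 6 of 6 birds (edgeR adjusted p = 0.00954), and BF1, BF2, TAP1 and TAPBP did not pass.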

How the data were processed

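Poly-A RNA was sequenced as paired reads of 100 bp, per the labels' protocols. The authors deposited expected counts, which kallisto estimates, per the labels, in a table with 1 row per gene symbol. They were unnormalised and already whole, so rounding changed none. Tools listed without a role in the submitters' processing notes are kallisto 0.44.0, DESeq 0.99.484, DESeq2 1.38.3 and bcl2fastq 2.19. The build names given there are galGal6 and GRCg6a. The labels do not say how transcript estimates became gene totals. Estimation divides reads of near-identical genes, so such levels are uncertain. The 1 unnamed row entered neither the library sizes nor the tests (9.02% ± 0.515 of counts before recruitment, 6.60% ± 0.215 in F5, SD, n = 6). Mitochondrial genes took 8.49% to 11.6% of named counts before recruitment and 8.82% to 9.96% in F5.

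Counts were analysed with edgeR 4.0.16 (limma 3.58.1, R 4.3.3): filterByExpr by stage (minimum count 10), TMM, robust quasi-likelihood fits with stage as the only term, two-sided tests with Benjamini-Hochberg adjustment over 11195 genes at 0.05. Spread between libraries, as edgeR's biological coefficient of variation, came to 0.168. Printed CPM use the TMM factors, fold changes are those of the fit, and SE is the log2 change over the square root of F. Low counts add counting error, most for PSMG4, whose lowest count was 241. Alternatives were the bird as a block, other scalings, filters and fits, DESeq2 1.42.0, and leaving out libraries or birds. The code was tested on simulated data. No pair of libraries within a stage was a repeat (smallest chi-square per degree of freedom 24.1).

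Both stages come from the same birds, per the labels. Deviations from stage means correlated across genes at 0.129 to 0.388 within birds and -0.298 to 0.302 between them, so the ranges overlapped. Of the 6 libraries of each stage, 5 correlated best with the other library of their own bird. The numbers lean towards the pairing in the labels but do not settle it for every bird. Genes are not independent replicates.

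Members and lists were chosen with earlier results of these data known. Every member is accounted for. Given in full are the 2 of each role group with the smallest adjusted p and those called against most of their group. Other lists give up to 4 genes by adjusted p and a fixed panel. A part of that rule that needed coding lengths was not applied, since none were used. Symbols without a row, SEM1 and DDI2 among them, were not analysed here. Of the members, 38 matched a RefSeq symbol of GRCg7b, a build other than the authors', used for names only, and PSMB6 did not.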

Additional observations from a re-analysis of the deposited data

Results flagged for a closer look

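Over 112 groups of 6 libraries (the 39 members, their sums, the gene panel and the library measures, in each stage), 3 held a library whose gap to its nearest neighbour as a share of the group's range was above Dixon's critical value. Chance flags about 1 in 20 groups. PSMD6 in the Pre-recruitment libraries had bird 5826 low, at 88.8 CPM against 94.5 to 95.4 CPM in the others, a gap of 0.864 of the range. UCHL5 in the Pre-recruitment libraries had bird 5817 low, at 64.5 CPM against 71.7 to 75.6 CPM (0.648). NFE2L2 in the F5 libraries had bird 5835 high, at 116 CPM against 85.3 to 96.7 CPM (0.629). Without that library the log2 change of each of these 3 genes kept its sign and its call.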

How the results depend on the processing

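With library totals in place of TMM the core particle had 7 risers in place of 11 and a median log2 change of 0.19 in place of 0.43, and the regulatory particle 6 in place of 11 and 0.045 in place of 0.28. Log2 changes that turned sign under that scaling were PSMA5 (-0.15), PSMA6 (-0.0085), PSMB2 (-0.078), PSMC5 (-0.11), PSMD3 (-0.12), PSMD11 (-0.16), PSMD13 (-0.21), PSMD14 (-0.073), PSMD10 (-0.13), PSME3 (-0.16), PSMG2 (-0.11) and NFE2L1 (-0.027). The factors alone differ in that setting. Median-ratio scaling, DESeq2, both other low-count filters and a non-robust fit left all 39 members with the same sign and call. With the bird as a replicate block 7711 genes were called in place of 7333 and 31 members in place of 30, the added one being PSME4, and no other member's call changed. Leaving out a library or a bird gave 6750 to 7239 genes, 27 to 31 members, 10 to 11 core and 10 to 12 regulatory risers, and log2 changes of PSMD13 from -0.011 to 0.042. Without the member with the most counts of each particle (PSMB4, PSMC6), the core to regulatory ratio averaged 0.770 in place of 0.782 before recruitment and 0.818 in place of 0.813 in F5. How far counting error, which is larger for the accessory genes with few counts, adds to the spread between libraries was not tested.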
